A study of Mus musculus with 6 samples.

Results

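The imprinted growth genes around Mest are 10 mouse genes that are read mainly from 1 parental copy: Mest, H19, Igf2, Dlk1, Meg3, Peg3, Plagl1, Grb10, Cdkn1c and Igf2r. Mest was chosen by its lower log2 intensity with telmisartan on these same arrays, so its values are given as a description with no test, and the others were added as known partners in the imprinted gene network. A gene was measured here if a probe set was annotated to its symbol alone, which held for 9 of the 10 genes, out of 22087 genes in all. H19 had no such probe set and shared 1 with Mir675. The livers came from 3 STAM mice given telmisartan and 3 given vehicle, out of 7 in each group, and each mouse had its own array. STAM is a model of steatohepatitis on a diabetic background, made in male C57BL/6J mice. Both groups had 200 μg of streptozotocin, a toxin of insulin-producing beta cells, at 2 days after birth, and ate food with 60 kcal% of fat once they were 4 weeks old. Telmisartan blocks the angiotensin II receptor. It was dosed orally at 5 mg/kg each day, starting at 6 weeks and ending at 12 weeks, dissolved in 0.5% carboxymethyl cellulose. Carboxymethyl cellulose is listed at 0.5% for the vehicle mice too, though the methods of the study state it for telmisartan only. Vehicle mice are a control for the drug and not for the disease, and healthy liver was not analysed here.

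Imprinted genes carry DNA methylation set in the egg or the sperm, so that a tissue reads the copy from 1 parent and keeps the other silent. Many of them set the pace of fetal growth: in mice the paternally expressed Igf2 drives growth, and the maternally expressed Igf2r, Grb10, Cdkn1c and H19 restrain it. Genes of this network are high together in fetal mouse liver and fall together after birth. The 10 genes lie on chromosomes 6 (Mest), 7 (H19, Igf2, Cdkn1c and Peg3), 10 (Plagl1), 11 (Grb10), 12 (Dlk1 and Meg3) and 17 (Igf2r).

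The values are log2 intensities after robust multi-array average normalization (RMA). Pairs of arrays correlated at 0.984 to 0.991 over all probe sets, and vehicle 1 had the lowest mean correlation with the rest, 0.985. All 12 hepatocyte markers, Alb and Hnf4a among them, were above background in every liver. Background was read from 1105 probe sets of olfactory receptors, which liver should lack: the level under which 95% of them lay was 2.92 to 2.95 on the telmisartan arrays and 2.81 to 2.90 on the vehicle arrays, and a probe set over that level on an array is above background there. The groups were compared with limma over 23094 probe sets. A probe set is called lower or higher where its unadjusted p is below 0.05 and its change at least 1.2-fold, as the study set them. Of all probe sets 3.48% were called lower and 3.07% higher. After adjustment limma left 0 below 0.05, out of 1617 below 0.05 unadjusted, and the methods' t-test likewise left 0.

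Mest and Peg3, both read from the paternal copy, were lower in the livers of telmisartan-treated mice. Peg3 was the 1 called gene among the 8 measured network genes other than Mest, beside 3.48% of all probe sets called lower by limma and 1.71% by the methods' t-test, which called Peg3 as well. The other 7 were not called, and 0 were higher, also at an unadjusted p below 0.05 by limma or by the methods' t-test. Of the 8 genes, 6 had a negative and 2 a positive log2 fold change, with a median of -0.14, beside -0.000183 over all probe sets. Mest, Peg3, Grb10 and Igf2r were above background on all 6 arrays, Cdkn1c on 5 and Igf2 on 4, while the probe sets annotated to Dlk1, Meg3 or Plagl1 alone were above it on none.

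**Figure D1:**
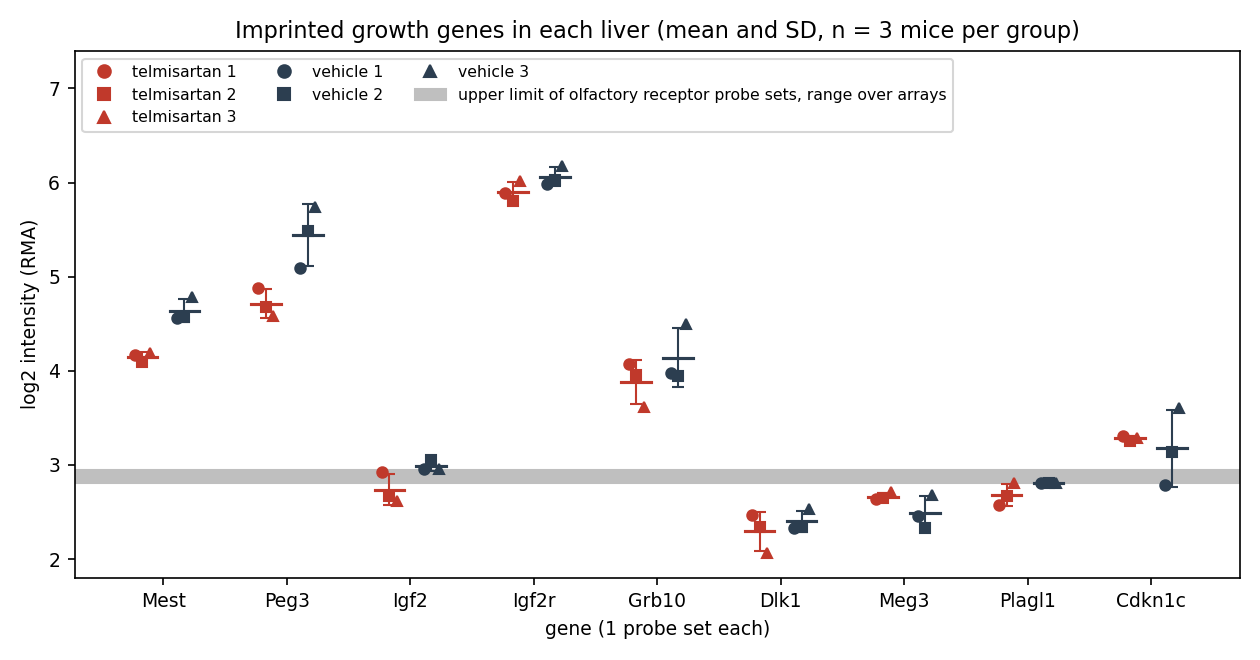
Log2 intensity (vertical axis) of the 9 measured imprinted growth genes on each array, with telmisartan left of vehicle for each gene; points are mice, horizontal lines means and bars SD (n = 3 mice per group), and the grey band is the range over arrays of the background level. Mest and Peg3 are above the band with no overlap between the groups, Igf2 lies around the band, and Dlk1, Meg3 and Plagl1 lie under it or at its lower edge.

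Mest, also known as Peg1, encodes a membrane protein with a hydrolase fold, and in mice it is known for its high level in mesoderm and for its rise in the fat tissue of obese animals. Its log2 intensity was 4.16, 4.09 and 4.19 in telmisartan-treated livers, against 4.56, 4.57 and 4.78 in vehicle-treated livers. The groups did not overlap, and vehicle 3 was the highest array. Mest averaged 4.15 ± 0.05 with telmisartan and 4.64 ± 0.12 with vehicle (SD, n = 3 mice each). The log2 fold change was -0.49 (SE 0.11), or 1.40-fold lower, and lay between -0.53 without vehicle 1 and -0.42 without vehicle 3 when 1 array was dropped.

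Peg3, or Pw1, encodes a large zinc finger protein that binds DNA and in mice marks progenitor cells in many adult tissues. Its log2 intensity was 4.88, 4.68 and 4.58 in telmisartan-treated livers and 5.10, 5.49 and 5.74 in vehicle-treated livers. The groups did not overlap, and vehicle 3 was the highest array here too. Peg3 averaged 4.71 ± 0.16 with telmisartan and 5.44 ± 0.33 with vehicle (SD, n = 3 mice each). The log2 fold change was -0.73 (SE 0.17), or 1.66-fold lower; limma gave an unadjusted p of 0.00253 and an adjusted p of 0.695 over all probe sets. The exact permutation test gave p = 0.1, the smallest that 3 against 3 arrays can give. Peg3 was called without any 1 of the arrays, at -0.90 without vehicle 1 to -0.58 without vehicle 3 and with a limma p of at most 0.0130. A further probe set is annotated to Peg3 together with Peg3os, an RNA of the opposite strand. It was at 2.64, 2.27 and 2.27 with telmisartan and 2.67, 2.95 and 3.12 with vehicle, above background on 2 arrays only, a log2 fold change of -0.52 (SE 0.16). Across the 6 arrays Peg3 followed Mest with a Pearson correlation of 0.928, a description over 6 points that fall into the groups compared.

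The promoters of Mest and Peg3 are shown because these network genes were both lower and above background in every liver. They are RefSeq sequences of the build GRCm38.p6, from 250 bases before to 50 bases after a start site, with each CG dinucleotide, the letters that carry DNA methylation, in capitals. The Mest sequence is chr6:30737800-30738099 on the plus strand and the Peg3 sequence is chr7:6730370-6730669 on the minus strand.
Mest: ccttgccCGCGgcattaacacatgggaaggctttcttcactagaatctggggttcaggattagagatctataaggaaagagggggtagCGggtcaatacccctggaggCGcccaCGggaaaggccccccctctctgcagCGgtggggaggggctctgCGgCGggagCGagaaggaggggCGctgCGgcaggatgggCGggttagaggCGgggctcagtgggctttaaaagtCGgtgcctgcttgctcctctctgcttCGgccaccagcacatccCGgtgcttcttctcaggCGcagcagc
Peg3: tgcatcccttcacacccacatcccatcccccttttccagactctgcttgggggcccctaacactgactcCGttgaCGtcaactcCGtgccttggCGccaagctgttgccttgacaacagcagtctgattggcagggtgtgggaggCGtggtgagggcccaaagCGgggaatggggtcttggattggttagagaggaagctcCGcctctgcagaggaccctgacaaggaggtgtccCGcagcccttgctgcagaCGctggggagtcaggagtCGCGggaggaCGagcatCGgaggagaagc
The Mest sequence shown held 17 CG dinucleotides and the Peg3 sequence 13, where the median over 32851 promoters of this length was 7. At least 17 were found in 31.4% of all promoters, and at least 13 in 37.9%. RefSeq lists a further Mest start upstream, whose promoter held 8, near the median, and 48.6% of all promoters held at least as many. The letters GGGGCCCC, known as a binding motif of the Plagl1 protein and equal to their own reverse complement, occurred once in the Peg3 promoter, 201 bases before the start, and in 1 of the 15 promoters listed for 8 of the network genes in all. They occurred in 1.08% of all promoters. The motif was picked with the results known, and a match in letters is not a binding site. DNA methylation and the parental copy were not measured.

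Of the genes in the clusters of Mest and Peg3, Copg2, Klf14, Usp29 and Zim1 were measured and none of these 4 was called. Copg2, which encodes a coat protein of transport vesicles and overlaps the end of Mest, was at 6.14, 5.94 and 6.22 with telmisartan against 6.29, 5.95 and 6.07 with vehicle. Klf14, a transcription factor gene of the same cluster, was at 3.47, 3.27 and 3.94 with telmisartan and 3.61, 3.50 and 3.56 with vehicle. In both genes the groups overlapped. Usp29 and Zim1, neighbours of Peg3, were above background on no array.

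Igf2, the fetal growth factor, stood near background. It was at 2.92, 2.67 and 2.62 in telmisartan-treated livers, against 2.96, 3.05 and 2.96 in vehicle-treated livers. The groups did not overlap, as in 2 of the 8 genes (Igf2 and Peg3) and in 6.24% of all probe sets, but telmisartan 1 lay close to the vehicle arrays. The values of vehicle 1 and vehicle 3 were identical as deposited, which narrows the spread of the vehicle group. The log2 fold change of -0.25 (SE 0.12, limma p 0.0598 unadjusted) was not called; without telmisartan 1 it was -0.35 and was called. Igf2r, which binds IGF2 protein and carries it to lysosomes for breakdown, was at 5.89, 5.81 and 6.02 with telmisartan and at 5.98, 6.03 and 6.17 with vehicle. The groups overlapped, and the log2 fold change was -0.16 (SE 0.11).

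Grb10 and Cdkn1c restrain growth by different means. Grb10, an adaptor that dampens signaling by the insulin and IGF receptors, was at 4.07, 3.95 and 3.62 in telmisartan-treated livers and at 3.97, 3.94 and 4.50 in vehicle-treated livers. Vehicle 3 stood above the rest and the groups otherwise overlapped, so that the log2 fold change of -0.26 (SE 0.18) was -0.08 without vehicle 3. Cdkn1c, an inhibitor of cyclin-dependent kinases, was at 3.31, 3.26 and 3.29 with telmisartan, against 2.78, 3.14 and 3.60 with vehicle. The telmisartan arrays lay inside the range of the vehicle arrays, and the log2 fold change of 0.11 (SE 0.19) was -0.09 without vehicle 1. In 7 of the 9 network genes vehicle 3 had the highest of the vehicle values, as it did in 32.6% of all genes.

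The probe sets annotated to Dlk1, Meg3 or Plagl1 alone were above background on no array. Dlk1 encodes a membrane protein related to Notch ligands that marks fetal liver progenitors and preadipocytes, and was at 2.47, 2.34 and 2.07 with telmisartan and 2.32, 2.34 and 2.53 with vehicle. Meg3, the long noncoding RNA read from the maternal copy of the same cluster, was at 2.63, 2.65 and 2.71 with telmisartan against 2.46, 2.33 and 2.68 with vehicle. Plagl1, a zinc finger transcription factor that controls other genes of the network, was at 2.58, 2.67 and 2.81 with telmisartan, against 2.81, 2.81 and 2.81 with vehicle. Of its 6 values 3 were identical as deposited, and 16.4% of all deposited probe sets had a value that arrays shared. The groups overlapped in all 3 genes, with log2 fold changes of -0.11 for Dlk1, 0.18 for Meg3 and -0.12 for Plagl1. A probe set that Meg3 shares with Mir770, a miRNA gene, was above background on all 6 arrays, at 3.66, 3.59 and 3.59 with telmisartan and 3.69, 3.69 and 3.69 with vehicle, a log2 fold change of -0.08 (SE 0.10). There the groups did not overlap, and the 3 vehicle values were identical as deposited. Another, shared by Meg3 with copies of Mir1906, was above background on 1 array, with a log2 fold change of -0.06 (SE 0.20).

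Some of these genes carry miRNA genes inside them, and the array has probe sets named for the miRNAs. Such a probe set reads the hairpin and whatever precursor RNA holds it, and not the mature miRNA alone. Mir335 lies inside Mest and Mir483 inside Igf2, so their mature RefSeq sequences are shown, with the seed (bases 2 to 8) in capitals. Mir654, of the cluster beside Meg3, is shown because it was called as well.
mmu-miR-335-5p: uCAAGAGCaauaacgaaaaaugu
mmu-miR-335-3p: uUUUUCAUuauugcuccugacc
mmu-miR-483-5p: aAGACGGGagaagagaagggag
mmu-miR-483-3p: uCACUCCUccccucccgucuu
mmu-miR-654-5p: uGGUAAGCugcagaacaugugu
mmu-miR-654-3p: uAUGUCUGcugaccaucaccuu
The 6 mature sequences have 6 different seeds. Among 49 listed miRNA genes of these loci 35 were measured, 27 of them above background on no array, and 3 were called, or 8.57%, beside 6.55% of all probe sets in either direction. Mir483 was above background in every liver, at 5.12, 5.15 and 4.85 with telmisartan, against 5.22, 5.75 and 5.48 with vehicle. The groups did not overlap. Its log2 fold change was -0.45 (SE 0.16, limma p 0.0198 unadjusted, 0.695 adjusted), and the methods' t-test did not call it. The call was lost on leaving out vehicle 2 or telmisartan 3, at a limma p of up to 0.0767. Mir335 was called in the direction opposite to Mest, at 1.68, 1.85 and 1.26 with telmisartan and 1.27, 1.25 and 1.03 with vehicle. No array was above background there, the groups overlapped, and the call was lost on leaving out vehicle 2, vehicle 3, telmisartan 1 or telmisartan 2. Mir654 was at 2.10, 2.03 and 2.07 with telmisartan and 2.42, 2.53 and 2.34 with vehicle, with no overlap but below background in every liver.

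**Figure D2:**
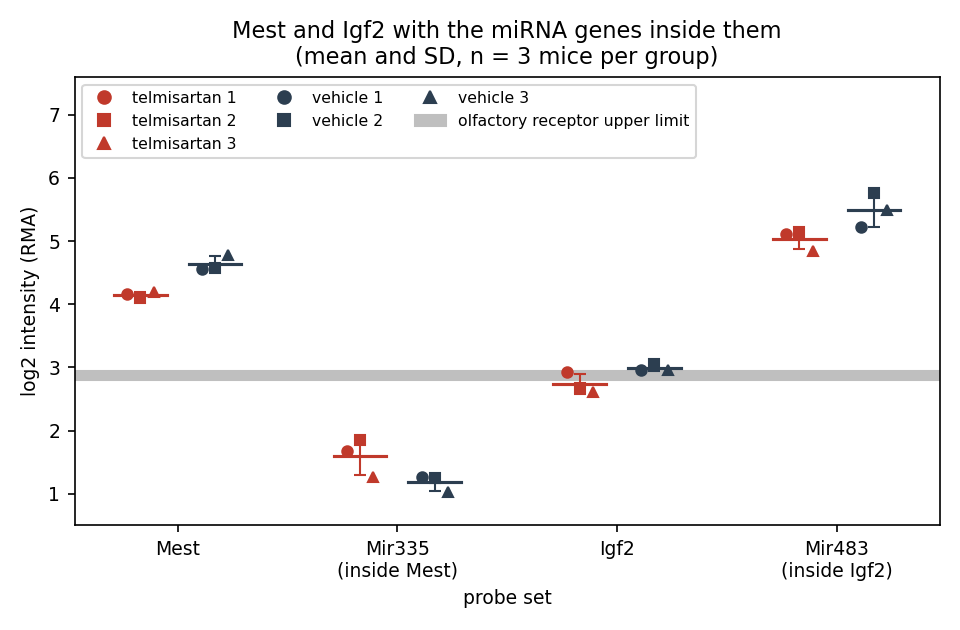
Log2 intensity (vertical axis) of Mest, of Mir335 inside it, of Igf2 and of Mir483 inside it on each array, with telmisartan left of vehicle; points are mice, horizontal lines means, bars SD (n = 3 mice per group) and the grey band the background level. Mir335 lies under the band on all 6 arrays and Mir483 above it on all 6.

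Other imprinted genes that were called were lower in telmisartan-treated livers. Of 73 listed genes 63 were measured, and 8 were called lower and 0 higher. That is 12.7% lower, beside 3.48% of all probe sets. The methods' t-test called 6 lower and 0 higher. The median log2 fold change was -0.07, beside -0.000183 for all probe sets. All 8 called genes were above background on every array, which held for 35 of the 63. Of these 35 genes 22.9% were called lower, beside 4.84% of all probe sets above background on every array. Many genes of this list are known to be imprinted in mouse placenta or brain only, and the arrays do not tell parental copies apart. The list was chosen with earlier results of these data known. Dcn, 1 of the 8 called genes, also counts among the markers of stellate cells and fibroblasts below.

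Sgce, the epsilon subunit of the sarcoglycan complex and paternally expressed like Mest and Peg3, was at 3.48, 3.22 and 3.36 with telmisartan, against 3.83, 3.77 and 4.30 with vehicle. The groups did not overlap, and the log2 fold change was -0.61 (SE 0.16; limma p 0.00435 unadjusted, 0.695 adjusted). Peg10, the imprinted neighbour of Sgce, was not called, with a log2 fold change of -0.23 (SE 0.13). Kcnq1ot1, the paternal noncoding RNA that silences the Cdkn1c cluster, was at 3.80, 3.66 and 3.57 with telmisartan and at 3.98, 4.25 and 4.07 with vehicle. The groups did not overlap, and the log2 fold change was -0.43 (SE 0.12). It runs opposite to Kcnq1, which was not called at -0.28 (SE 0.18), and Phlda2 of the same cluster was above background on no array.

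The other 6 lower genes have varied roles. They were Qpct, a glutaminyl cyclase (-0.45 in log2 fold change), Dcn, the matrix proteoglycan decorin (-0.43), Gatm, an enzyme of creatine synthesis (-0.40), Impact, a regulator of translation (-0.39), Cd81, a tetraspanin of the cell surface (-0.34), and Pon3, a paraoxonase (-0.29). Of the 8 calls, 5 held without any 1 of the arrays. Cd81 lost its call without vehicle 3, Impact without vehicle 1 or telmisartan 1, and Dcn without vehicle 2, vehicle 3 or telmisartan 2.

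**Figure D3:**
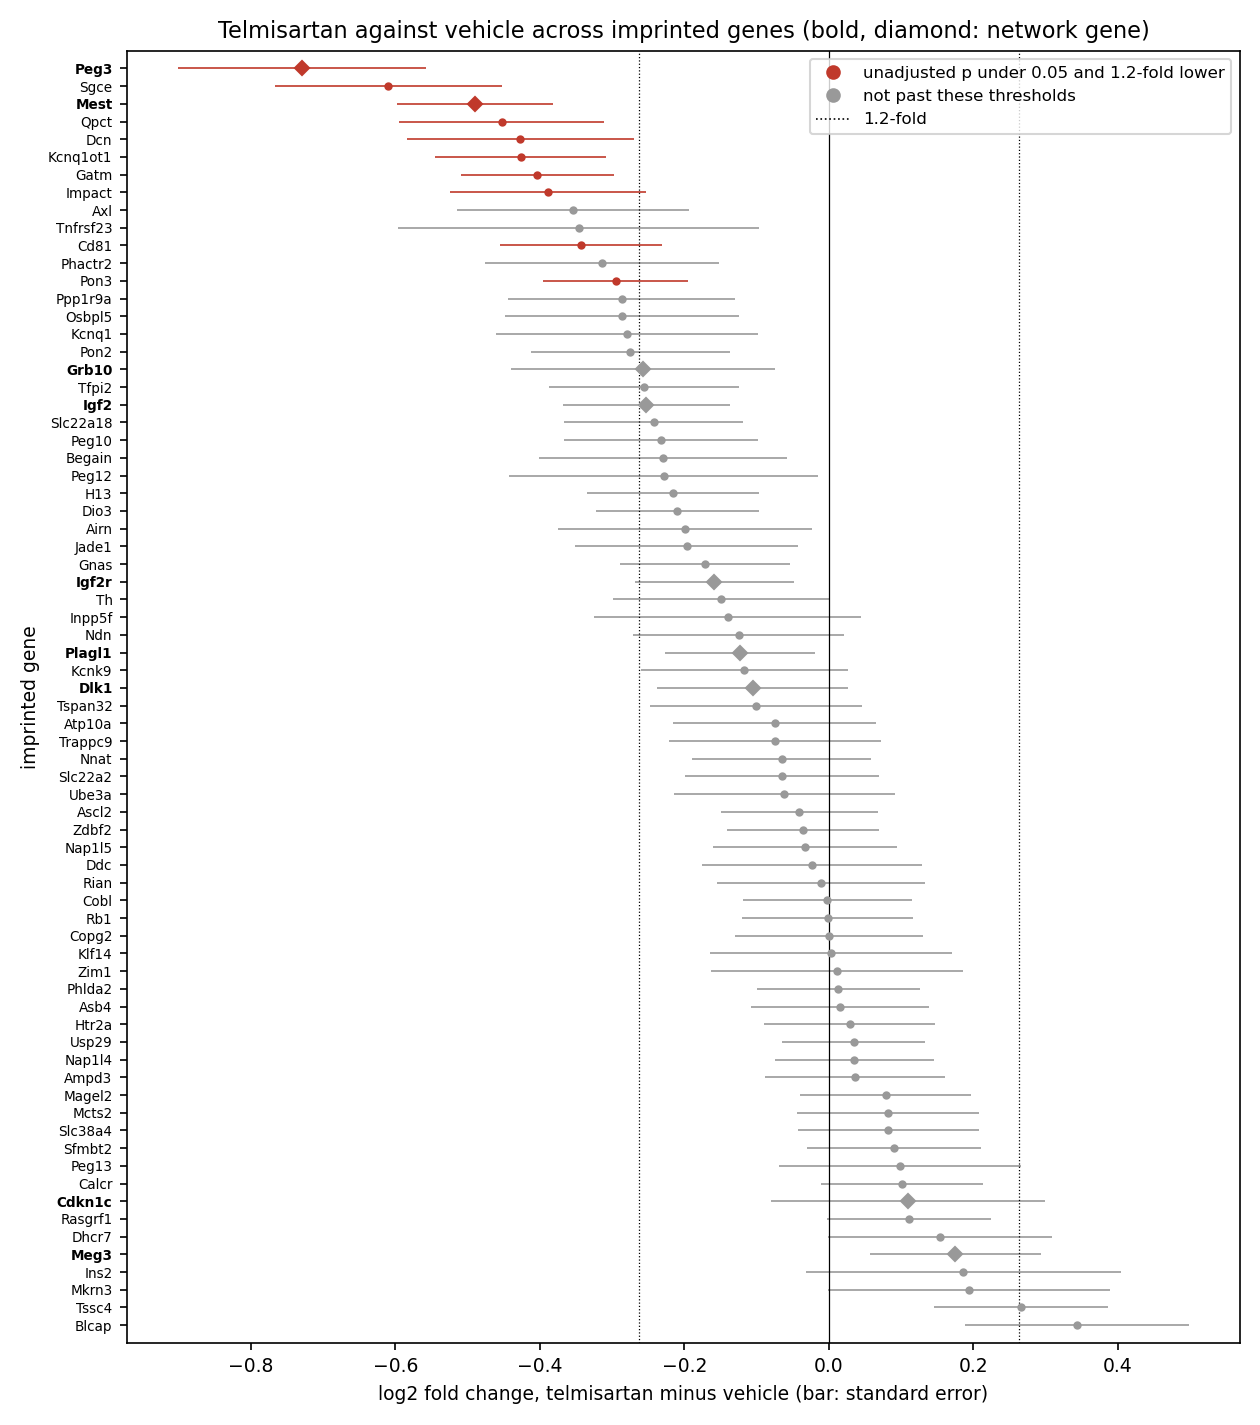
Log2 fold change (horizontal axis, telmisartan minus vehicle) of the 9 measured network genes (bold, diamonds) and 63 other imprinted genes (circles), sorted by value, with bars for the standard error and dotted lines at 1.2-fold; red genes passed an unadjusted limma p of 0.05 and 1.2-fold, which Mest was chosen for. Peg3 at -0.73 is at the top, Sgce at -0.61 and Mest at -0.49 follow, and no gene is called higher.

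Of 26 measured genes that act on IGF signaling, 3 were called lower and 1 higher (2 lower and 1 higher by the methods' t-test). That is 11.5% lower, beside 3.48% of all probe sets, and 15.4% in either direction, beside 6.55%. The 1 higher gene stands beside 3.07% of all probe sets called higher. The median log2 fold change was 0.04. Irs2, the insulin receptor adaptor, was at 5.51, 5.90 and 5.82 with telmisartan against 6.39, 6.41 and 6.34 with vehicle, a log2 fold change of -0.64 with an SE of 0.13 and a limma adjusted p of 0.695. The study had named Irs2 from these samples, so it is no independent evidence. Igfbp7, a secreted IGF-binding protein of vessel walls, was at 7.64, 6.55 and 7.19 with telmisartan and 7.68, 7.77 and 7.87 with vehicle, and it was no longer called without vehicle 2, vehicle 3, telmisartan 2 or telmisartan 3. Stc1, a secreted glycoprotein, was called at -0.35 but was above background on no array. Grb14, an adaptor related to Grb10, was higher by 0.28 (SE 0.11), and of the arrays only vehicle 1 could be left out without losing its call. Igf1, the growth factor that liver secretes after birth, was at 8.20, 8.63 and 8.10 with telmisartan and 8.41, 8.20 and 8.29 with vehicle, and the groups overlapped.

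None of 29 genes that keep imprints or silence fetal genes after birth was called (limma, 0 at an unadjusted p below 0.05, and 0 with the methods' t-test). Over all probe sets 6.55% were called in either direction. Zhx2, a repressor of H19 and Afp in adult mouse liver, had a log2 fold change of -0.23 (SE 0.12). Zbtb20, a further repressor of Afp, stood at 0.02 (SE 0.14). Afp, the fetal relative of albumin, was at 3.77, 3.91 and 3.67 with telmisartan and at 3.76, 3.51 and 3.63 with vehicle, and the groups overlapped. Of 9 fetal hepatoblast markers 1 was called lower and 0 higher, or 11.1% lower, beside 3.48% of all probe sets. That was Sox4 at -0.45, above background on 5 of the 6 arrays. Gpc3, Lin28b, Spink1, Epcam and Prom1 were above background on no array.

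Most markers of liver endothelial cells were called lower, as Peg3 was. In the list of stellate cells and fibroblasts, and in that of macrophages, 25% were called lower and the rest were not called. The log2 fold change was negative in 14 of 16 and in 10 of 12 of these markers. All counts here stand beside 3.48% of all probe sets called lower and 3.07% called higher. Of probe sets above background on every array 4.84% were called lower. Of 12 markers of liver endothelial cells 10 were lower and 0 higher (3 lower with the methods' t-test): Stab2, Lyve1, Clec4g, Pecam1, Kdr, Cdh5, Eng, Oit3, Ehd3 and Fcgr2b. The count was 4 without telmisartan 2, 4 without telmisartan 3, 5 without vehicle 3 and 7 to 10 without any 1 of the other arrays, and Lyve1, Eng, Oit3 and Fcgr2b were called each time. The list had a median log2 fold change of -0.53 and a summed linear intensity of 772 to 1192 on the telmisartan arrays, against 1211 to 1473 on the vehicle arrays. Of 16 markers of stellate cells and fibroblasts 4 were lower, Dcn, Lum, Lrat and Pdgfra, while the methods' t-test called 0. Without vehicle 2 none of these 4 was called, and the count for the list was 1 without vehicle 2, vehicle 3 or telmisartan 2 and 8 without vehicle 1. The list had a median of -0.21, and its sums were 705 to 928 with telmisartan against 890 to 1140 with vehicle. Of 12 markers of Kupffer cells and macrophages 3 were lower, Marco at -1.35, Csf1r at -0.35 and Vsig4 at -0.28 (1 lower by the methods' t-test). Csf1r and Vsig4 were not called without vehicle 2, vehicle 3, telmisartan 1 or telmisartan 3, where the count was 1, and without vehicle 1 it was 6. The list had a median of -0.22 and sums of 1104 to 1228 with telmisartan and 1098 to 1705 with vehicle. All markers of these 3 lists were above background on every array. Hepatocyte markers had 0 called, a median of -0.01 and sums of 31270 to 33501 with telmisartan and 32287 to 33581 with vehicle. The 9 adipocyte, 6 cholangiocyte and 12 lymphocyte markers also had 0 called by limma, at an unadjusted p below 0.05 too, and 0 by the methods' t-test with 1.2-fold. Adipoq, Lep and Slc2a4 of the adipocyte list were above background on no array. Of 16 cell cycle markers 3 were higher (Bub1, Tyms and Rrm2) and 2 lower (Ccnb2 and Mcm2), against 2 higher and 0 lower by the methods' t-test. Bub1 was above background on no array, and of the 5 calls that of Tyms alone held without any 1 of the arrays. With 1 array left out, 1 (without vehicle 1 or telmisartan 2) to 3 were higher and 0 (without vehicle 3 or telmisartan 2) to 2 lower. The part of these cell types in the levels of Mest, Peg3 and the other lower imprinted genes was not tested, and in whole liver fewer cells of a type and less RNA per cell cannot be told apart.

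**Figure D4:**
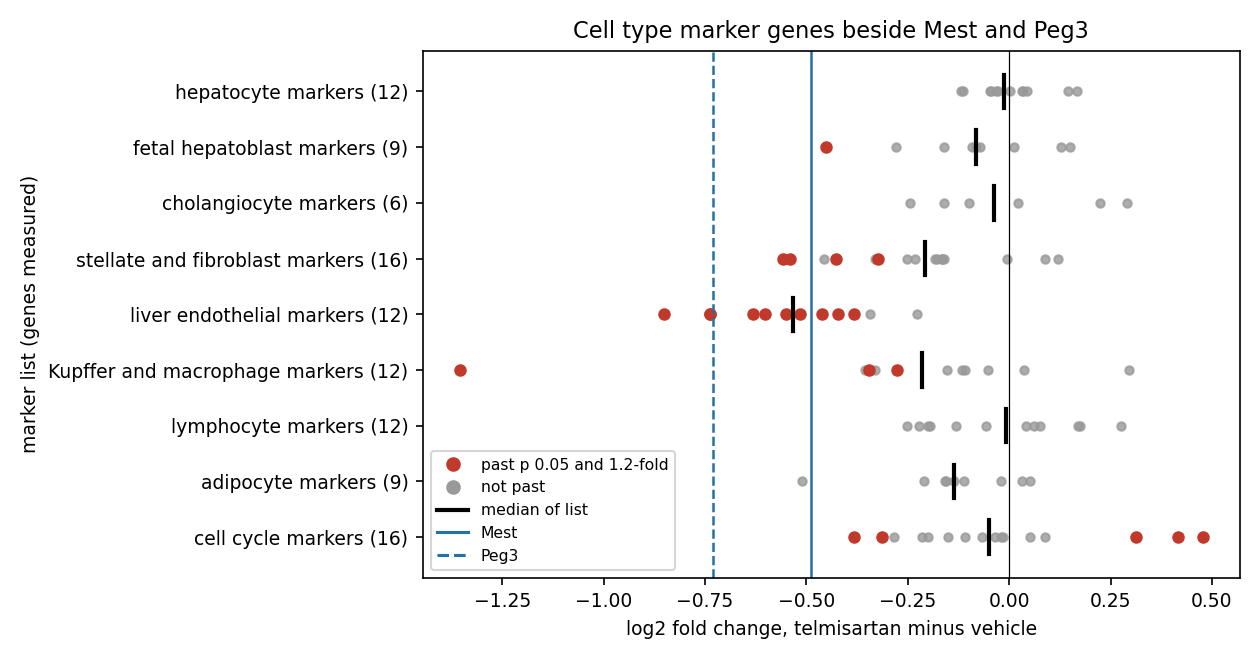
Log2 fold change (horizontal axis, telmisartan minus vehicle) of each marker gene in 9 lists, with the number of genes measured in brackets; red points were called, black bars are list medians, and blue lines mark Mest (solid, -0.49) and Peg3 (dashed, -0.73). The endothelial list has its median at -0.53 and the hepatocyte list at -0.01.

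The genes whose levels ran most like Mest over the 6 arrays, among 5604 genes with a mean log2 intensity of at least 5, were Akip1, Mea1, Slc30a7, Gm4951 and Msn. Their Pearson correlations with Mest were 0.977 to 0.996, a description over 6 points in the groups compared. Their likeness to Mest in group difference and in the highest array follows from that choice. Akip1, which encodes a protein that binds protein kinase A, was at 5.16, 5.14 and 5.17 with telmisartan, against 5.42, 5.43 and 5.60 with vehicle. Msn, the membrane-to-actin linker moesin, was at 5.59, 5.47 and 5.58 with telmisartan, against 5.78, 5.86 and 6.08 with vehicle. In all, 26 genes had a correlation with Mest over 0.95.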

How the data were processed

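Liver RNA of 3 telmisartan-treated and 3 vehicle-treated STAM mice was hybridized to Affymetrix GeneChip Mouse Gene 2.0 ST arrays. The authors ran RMA on the arrays, kept probe sets with signal in every sample and deposited linear intensities for 31873 of them. Here log2 was taken with no pseudocount and with no further normalization. A platform table gave 1 gene symbol for 23094 probe sets, which entered the fit, and several for 1770, while 7009 were not in it. The brightest probe set stood for each gene. The test was limma 3.58.1 under R 4.3.3, two-sided, adjusted by Benjamini-Hochberg over every probe set fitted, and was tested on simulated data. Alternatives were the methods' t-test, other normalizations and filters, a pseudocount, an intensity trend, a replicate block and leaving out each array. The text names all network genes, called genes of the lists, cluster neighbours, the regulators Zhx2 and Zbtb20 and the 5 genes most like Mest. Kcnq1, Phlda2, Peg10, Igf1, Afp and the undetected markers were named after their values were seen. The network genes and lists were chosen with earlier results of these data known. The number of arrays limits the precision.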

Additional observations from a re-analysis of the deposited data

Results flagged for a closer look

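The probe set annotated to H19 together with Mir675, the miRNA gene inside H19, was outside the comparisons because it has more than 1 symbol. Its signal on every telmisartan array was above that on every vehicle array, which held for 6.07% of the probe sets compared. This probe set was picked among the shared probe sets of network genes for this separation and for standing above background on every array. Neither is therefore evidence, and the p-values below follow a choice made on the same values. H19 is the maternal noncoding RNA of the Igf2 cluster, and the annotation does not assign the signal to either name. It was at 3.82, 4.99 and 3.99 in log2 intensity with telmisartan, against 3.49, 3.58 and 3.65 with vehicle, above background on all 6 arrays. The vehicle arrays lay close together, and telmisartan 2 stood above the other telmisartan arrays. The log2 fold change was 0.69 (SE 0.28), in the direction opposite to Mest and Peg3, and 0.33 without telmisartan 2. Fitted over all deposited probe sets, limma gave an unadjusted p of 0.0364 and an adjusted p of 0.736, with an unadjusted p of up to 0.0890 on dropping 1 array. The p of the methods' t-test, unadjusted, was 0.135.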

How the results depend on the processing

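Peg3 kept its direction and its call under each of the alternatives that kept the gene. Without dim probe sets, Peg3 and Igf2r alone were left. The sign of Igf2, Meg3, Plagl1, Grb10 and Igf2r also held under each alternative that kept the gene. Mest kept its direction too, but it was chosen by that direction on these arrays. For Mest this is a description and not support. The sign of Dlk1 turned without telmisartan 3 (0.0074) and that of Cdkn1c without vehicle 1 (-0.09), neither of them called. With 1 array left out, the network genes other than Mest that were called lower numbered 1 to 2 (2 without telmisartan 1, with Igf2), those called higher 0, and those above background on all arrays 4 to 5. Other imprinted genes called lower numbered 6 to 11 and higher 0 to 1, IGF genes lower 1 (without vehicle 3) to 4 and higher 0 (without telmisartan 1, telmisartan 3 or vehicle 2) to 2 (without vehicle 1), regulators of imprints lower 0 to 1 and higher 0 to 1, miRNA probe sets 1 (without vehicle 2) to 5 (without vehicle 1), and all probe sets 602 to 1007 lower and 603 to 805 higher.
Of all probe sets, 803 were called lower and 709 higher; a pseudocount of 16 gave 290 lower and 141 higher, leaving out dim probe sets 372 and 192, the methods' t-test 396 and 339, and a fold threshold of 1.5 110 and 69, while fitting all deposited probe sets gave 1067 higher. Other imprinted genes lower were 5 without dim probe sets and 1 at a fold of 1.5. IGF genes with the pseudocount were 1 lower and 0 higher, and 0 were higher at a fold of 1.5 and with the replicate block. Regulators lower were 1 without dim probe sets, 1 with an intensity trend and 1 with the replicate block, which also gave 1 higher. miRNA probe sets called were 1 with the pseudocount, 1 without dim probe sets, 1 with the methods' t-test and 0 at a fold of 1.5. The log2 fold change of Mest with the pseudocount was -0.28. The array numbers did not pair the arrays, with correlations of the deviations of same-numbered arrays of 0.0396, -0.0201 and 0.0344, and the replicate block, with 799 lower and 757 higher, moved no other count by over 1.5 times. Leaving out single arrays for the cell type marker lists was chosen after seeing the data; it gave up to 1 hepatocyte, 1 cholangiocyte, 1 lymphocyte and 2 adipocyte markers called lower. Levels of Igf2, Dlk1 and Plagl1, and of Meg3 in its own probe set, were near or below background.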
